A study of Mus musculus with 6 samples.

Results

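Antigen presentation and interferon-inducible genes were followed in mouse ventricles at postnatal day 14 (P14) and postnatal day 1 (P1). The 45 genes were taken by symbol from a table of read counts for 14495 genes, and all 45 were found in it and passed the filter on low counts that left 14301 genes for testing. They comprise 12 genes of the MHC class I pathway, 4 genes of MHC class II and 29 interferon-related genes. The genes were chosen with the difference between ages and the differences between replicates of these same libraries already known, so their fold changes and calls are given as a description, without p-values, and support nothing beyond themselves. The P14 group comprised 3 libraries of ventricular mRNA from male C57BL/6 mice aged 14 days, and the P1 group comprised 3 such libraries from mice aged 1 day. Each library came from a pool of 3 hearts, 9 hearts per age, and the labels name no treatment or genetic change in either group. The tissue protocol describes ventricles with the septum and without atria, while the tissue field names the left ventricle. Whole tissue was used, so each value sums over cardiomyocytes, vessel cells, fibroblasts and leukocytes.

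MHC class I molecules present peptides from inside the cell on nearly all nucleated cells. Their peptides are cut by the proteasome, including the inducible immunoproteasome subunits, pumped into the endoplasmic reticulum by the TAP transporter and loaded onto a heavy chain paired with beta-2 microglobulin. MHC class II molecules present peptides from taken-up material and are made mainly by macrophages, dendritic cells and B cells, with the invariant chain Cd74 as their chaperone. Interferons induce both pathways together with antiviral effectors and a large set of GTPases, through STAT and IRF transcription factors.

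Total counts ranged from 9104230 to 15725993 at P14 and from 5916557 to 17353933 at P1. Values are CPM, the reads of a gene scaled to a common library size, after scaling by the trimmed mean of M-values (TMM), which takes most genes as unchanged. "Called" means that the Benjamini-Hochberg adjusted p of the quasi-likelihood test (edgeR), taken over all genes tested, was under 0.05. By this rule 43.8% of genes tested were called, 21.8% higher and 22% lower at P14. Over all genes tested the log2 fold changes had a median of −0.01. With library totals alone as the scaling that median was −0.47, and of all genes 1620 were called higher and 5592 lower, against 3115 and 3149 with TMM. Cardiomyocyte markers were abundant in all libraries, with Myl2 at 24100 to 35100 CPM at P14 and 19500 to 21600 CPM at P1.

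At P14 the class II genes and most class I genes had higher levels than at P1, while most interferon-inducible genes were not called. Of the 45 genes, 19 were called higher, 1 was called lower and 25 were not called, beside 43.8% of all genes called (21.8% higher and 22% lower), with a median log2 fold change of 0.75. By pathway, 4 of 4 class II genes, 10 of 12 class I genes and 5 of 29 interferon-related genes were called higher, with medians of 3.19, 1.40 and 0.29. The 1 gene called lower was Irgm1. In whole tissue, more cells of a type and more RNA per cell cannot be told apart. All 3 P14 libraries lay above all 3 P1 libraries in 16 of the 45 genes and below them in 3, where the shares over all genes tested were 27.3% and 27.5%. With library totals alone 12 of the 45 genes were called higher and 5 lower. Without P14 replicate 2, 12 were called higher and Irgm1 was not called. With totals alone the medians of class II, class I and the interferon-related genes were 2.71, 0.94 and −0.18, against −0.47 for all genes.

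**Figure D1:**
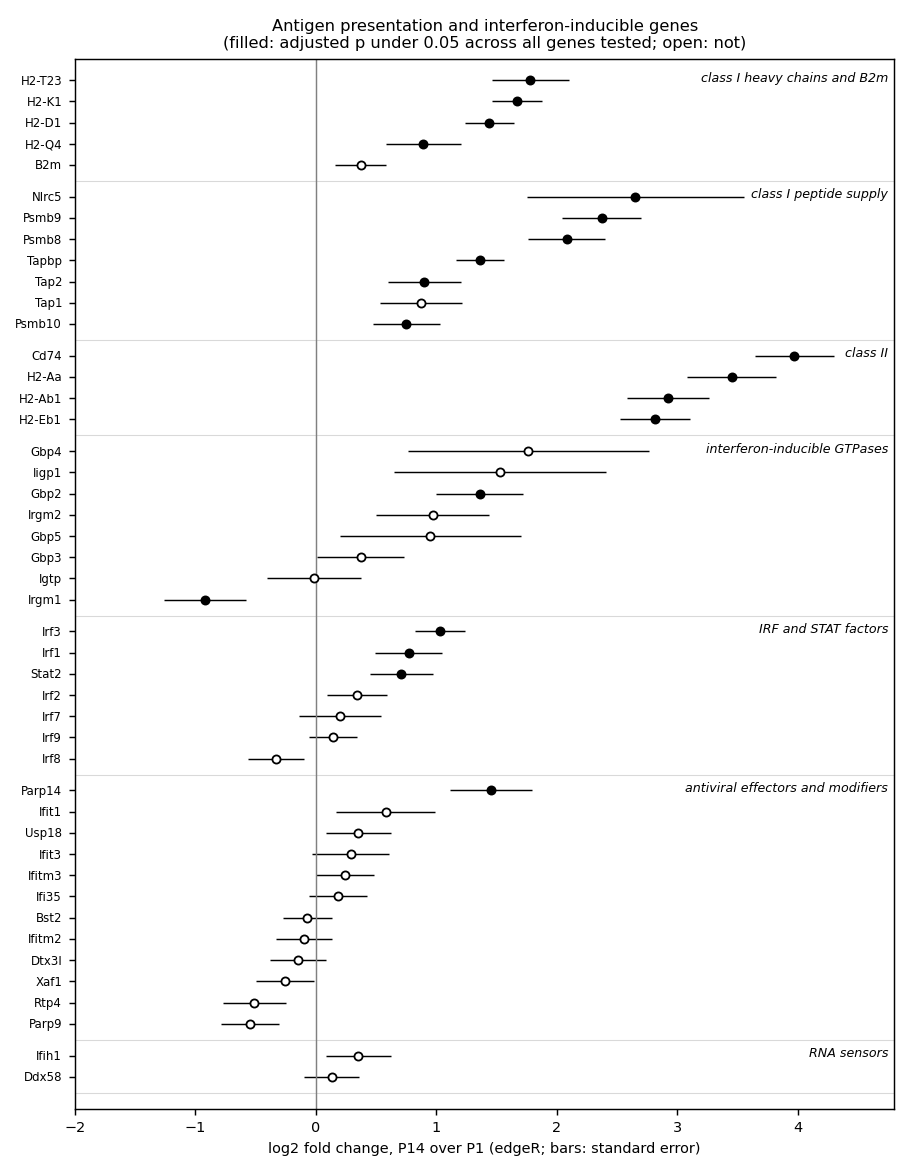
Log2 fold change of each of the 45 genes, P14 over P1 (horizontal axis), with its standard error, grouped by role; filled points were called across all genes tested and open points were not. Class II genes lie between 2.81 and 3.97, class I genes between 0.37 and 2.65, and the interferon-related genes between −0.92 and 1.76.

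Of the 3 pathways, class II had the highest median. Of the members, 12 lie on chromosome 17 between positions 33915899 and 36032855 of GRCm38 (GENCODE M21), the region of the mouse MHC, and these include H2-Aa (34282744 to 34287823), H2-Ab1 (34257689 to 34269419) and H2-Eb1 (34305867 to 34316674), while Cd74 lies on chromosome 18 (60803848 to 60812652). H2-Aa, which encodes the alpha chain of the I-A molecule, had 15.0, 12.7 and 6.95 CPM in the P14 libraries, against 1.30, 0.991 and 0.674 CPM in the P1 libraries. H2-Ab1, the beta chain of the same molecule, had 10.7, 13.9 and 8.24 CPM at P14, against 1.94, 0.933 and 1.35 CPM at P1. The lowest P14 library stood above the highest P1 library for both chains of I-A, and P14 replicate 3 was the lowest of its age for both.

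H2-Eb1, which encodes the I-E beta chain, had 14.5, 10.6 and 10.6 CPM at P14, against 1.76, 1.63 and 1.68 CPM at P1. These RNA levels do not show whether an I-E molecule was made. Cd74, the invariant chain that guides class II molecules to the endosome, had 54.5, 51.1 and 37.7 CPM at P14, against 4.02, 1.57 and 3.70 CPM at P1. The ages did not overlap in any of the 4 genes. The log2 fold changes were 3.97 ± 0.33 (SE) for Cd74, 3.45 ± 0.37 for H2-Aa, 2.92 ± 0.34 for H2-Ab1 and 2.81 ± 0.29 for H2-Eb1. The P1 values of the 3 MHC genes rest on few reads, with 4 counts of H2-Aa and 8 of H2-Ab1 in P1 replicate 3. All 4 calls held in every alternative run, and the median log2 fold change of the group was 3.08 to 3.51 when single libraries were left out.

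**Figure D2:**
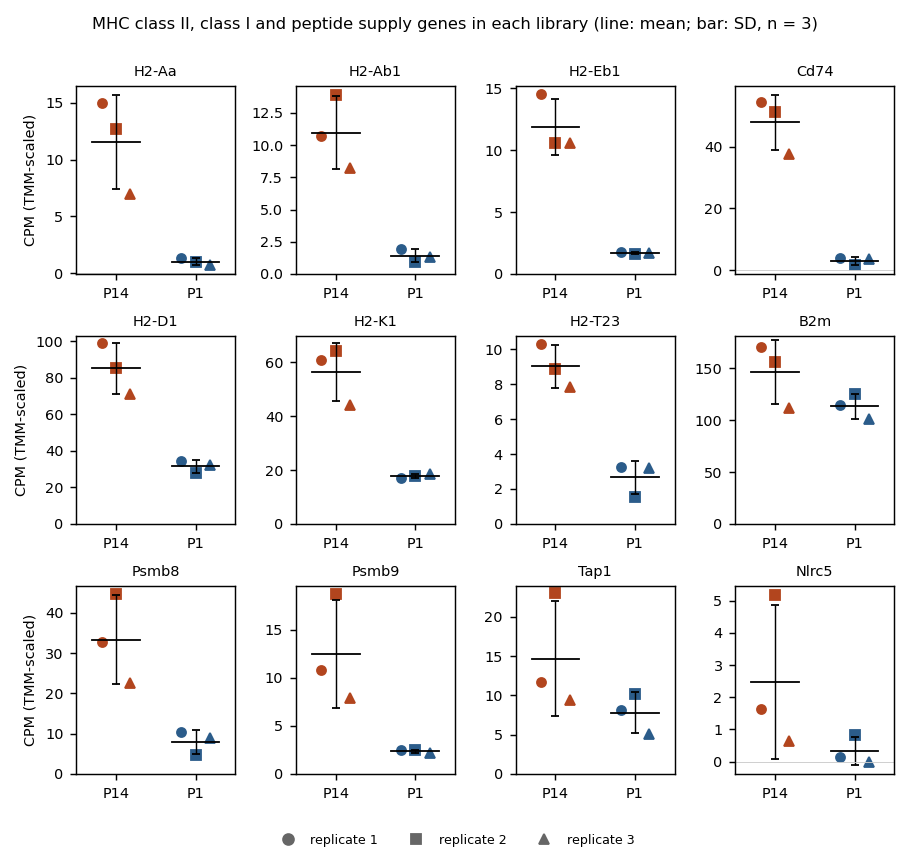
TMM-scaled CPM (vertical axis) of 12 MHC and peptide supply genes in each library, P14 left of P1, with the mean as a line and the SD as a bar (n = 3 pools per age); symbols mark the replicate number. The class II genes in the top row do not overlap between ages, while B2m, Tap1 and Nlrc5 do.

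Class I heavy chains were higher at P14 by smaller factors than class II, and B2m was not called. B2m, the light chain shared by all class I molecules (chromosome 2, 122147686 to 122153083), had 171, 156 and 112 CPM at P14, against 115, 125 and 101 CPM at P1, so that the ages overlapped and the log2 fold change was 0.37 ± 0.21. With the GC and length correction B2m was called higher, at 0.65, and with library totals alone its value was −0.10. H2-K1, a classical heavy chain (chromosome 17, 33996017 to 34000347), had 60.9, 64.1 and 44.2 CPM at P14, against 17.1, 17.7 and 18.7 CPM at P1. H2-D1, the other classical heavy chain of this strain (35262730 to 35267499), had 99.0, 85.5 and 71.1 CPM at P14, against 34.5, 27.7 and 32.2 CPM at P1. Both classical heavy chains were separated by age with close replicates, and their log2 fold changes were 1.67 ± 0.21 and 1.44 ± 0.20. H2-T23, which encodes the nonclassical molecule Qa-1 (36029773 to 36032855), had 10.3, 8.90 and 7.86 CPM at P14, against 3.24, 1.57 and 3.2 CPM at P1, with a log2 fold change of 1.78 ± 0.32. H2-Q4 (35379617 to 35385290), another heavy chain gene of the Q region, had 0.89 ± 0.31, and its call ended with library totals alone and without replicate 2 of either age.

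Heavy chain genes resemble each other, and the reads were 36 bases long. Of the 36-base windows of the longest GENCODE transcript, 82.8% were found in no other annotated gene for H2-K1, 76.7% for H2-D1, 75.9% for H2-T23 and 51.9% for H2-Q4. The most windows of H2-K1 were shared with H2-D1, and those of H2-D1 with H2-K1. How reads that match both were counted has no statement in the labels, so single heavy chain values are uncertain. Per kilobase of merged exon length, B2m had 170 CPM at P14 and 131 CPM at P1, H2-D1 33.0 and 12.2 CPM, and H2-K1 19.2 and 6.06 CPM, so the level of B2m exceeded that of either heavy chain at both ages.

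Upstream stretches of class II and class I genes are shown for 6 genes that hold a Y box, the GATTGG motif of MHC promoters, within these bases. All are from GRCm38.p6 in the direction of transcription, cover bases −80 to −21 before the RefSeq start, and carry the motif on either strand (GATTGG or its complement CCAATC) in capitals. They are H2-Aa (chr17:34287844-34287903, minus strand), H2-Eb1 (chr17:34305787-34305846, plus strand), B2m (chr2:122147607-122147666, plus strand), H2-D1 (chr17:35263014-35263073, plus strand), H2-T23 (chr17:36032722-36032781, minus strand) and H2-Q4 (chr17:35379537-35379596, plus strand).
H2-Aa: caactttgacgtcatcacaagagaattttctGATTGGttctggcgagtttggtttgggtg
H2-Eb1: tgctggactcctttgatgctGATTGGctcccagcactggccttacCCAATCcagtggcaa
B2m: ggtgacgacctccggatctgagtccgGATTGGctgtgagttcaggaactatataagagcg
H2-D1: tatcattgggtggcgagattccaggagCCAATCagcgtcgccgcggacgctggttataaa
H2-T23: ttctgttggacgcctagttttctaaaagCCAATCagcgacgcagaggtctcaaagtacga
H2-Q4: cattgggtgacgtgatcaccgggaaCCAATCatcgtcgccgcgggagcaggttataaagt

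In windows of 250 bases before and 50 after the start, the motif was found for 2 of 2 class II genes with a window and for 5 of 5 class I heavy chain and B2m genes. It was found for 2 of 5 peptide supply genes, which makes 7 of 10 in class I, and for 3 of 23 interferon-related genes (13.0%). In H2-K1, Tap1 and Psmb9 the match lies outside the bases shown. Over all 27025 genes with such a window, 18.2% held it. The motif is present in B2m, which was not called, and in the heavy chains that were called. RefSeq windows were matched for 35 of the 45 genes.

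Among the genes that supply peptides to class I, 6 of 7 were called higher (85.7%), beside 21.8% of all genes tested. Psmb8 and Psmb9 replace constitutive catalytic subunits of the proteasome, and Psmb10 replaces the third. Psmb8 (chromosome 17, 34197721 to 34201454) had 32.9, 44.6 and 22.5 CPM at P14, against 10.3, 4.61 and 8.92 CPM at P1. Psmb9 (34181987 to 34187764) had 10.8, 18.7 and 7.86 CPM at P14, against 2.45, 2.45 and 2.19 CPM at P1. P14 replicate 2 was the highest library for both genes, and the ages did not overlap. The log2 fold changes were 2.08 ± 0.32 and 2.37 ± 0.33. Psmb10, on chromosome 8 (105935735 to 105938444), had 61.4, 85.6 and 81.5 CPM at P14, against 64.3, 26.6 and 44.1 CPM at P1. Its P1 replicate 1 stood above its P14 replicate 1, and the log2 fold change of 0.75 ± 0.28 lost its call with library totals alone, upper quartile scaling, the stricter filter and the GC and length correction, and when any of 4 libraries was left out.

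Nlrc5, the transcriptional activator of class I genes (chromosome 8, 94434356 to 94527272), had 1.62, 5.18 and 0.644 CPM at P14, against 0.139, 0.816 and 0 CPM at P1. These rest on 23, 39 and 5 counts at P14 and 3, 14 and 0 counts at P1, and the ages overlapped. Its log2 fold change of 2.65 ± 0.90 was 1.66 without P14 replicate 2, where the call ended, and 4.37 without P1 replicate 2, where it held. The call also ended without P1 replicate 1 (2.11) or P1 replicate 3 (2.40), with library totals alone, with the GC and length correction, and in DESeq2 (2.88). Tapbp, the tapasin that bridges TAP and the heavy chain, and the transporter subunits Tap2 and Tap1 had log2 fold changes of 1.36 ± 0.20, 0.90 ± 0.30 and 0.87 ± 0.34, with Tap1 not called and P14 replicate 2 at 23 CPM against 11.7 and 9.40 CPM in the other libraries of its age. The call of Tap2 ended with library totals alone, with the GC and length correction with or without the block, and without replicate 2 or 3 of either age. In the fit with a replicate block, and in DESeq2, Tap1 was called higher (0.86 and 0.88). Tap1 and Psmb9 overlap head to head on opposite strands, so without strand information reads of their first exons cannot be told apart. Without P14 replicate 2, or without replicate 2 at both ages, 6 of the 12 class I genes were called higher.

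Of the 8 interferon-inducible GTPases, some of which attack the vacuoles of intracellular pathogens, 1 was called higher, 1 lower and 6 were not called. These shares of 12.5% each way stood beside 21.8% higher and 22% lower over all genes tested. In each of the 8, replicate 2 was the highest library at P14 and also the highest library at P1. Gbp4, a guanylate-binding protein (chromosome 5, 105115767 to 105139586), had 6.62, 33.5 and 7.86 CPM at P14, against 2.22, 9.33 and 1.68 CPM at P1. Iigp1, an immunity-related GTPase (chromosome 18, 60376027 to 60392634), had 7.81, 23.2 and 8.50 CPM at P14, against 1.34, 9.56 and 2.19 CPM at P1. In both genes P1 replicate 2 stood above P14 replicate 1, so the ages overlapped although each replicate number was higher at P14. Their log2 fold changes were 1.76 ± 1.00 and 1.53 ± 0.88, and neither was called. In the fit with a replicate block both were called higher, at 1.82 and 1.86.

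Gbp2 (chromosome 3, 142620602 to 142638008) had 13.7, 19.0 and 5.80 CPM at P14, against 4.30, 6.00 and 4.55 CPM at P1, and a log2 fold change of 1.36 ± 0.36. P14 replicate 3 stood below P1 replicate 2, so the ages overlapped. The call ended without P14 replicate 2, where the log2 fold change was 0.99. Irgm1, a regulator of the other immunity-related GTPases (chromosome 11, 48861968 to 48871683), had 14.5, 16.3 and 11.6 CPM at P14, against 17.6, 44.4 and 17.5 CPM at P1. Irgm1 lay lower at P14 without overlap, with a log2 fold change of −0.92 ± 0.34. The value was −0.31 without P1 replicate 2 and was then not called, and leaving out any of the P14 libraries also ended the call. The remaining members, Irgm2, Gbp5, Gbp3 and Igtp, had log2 fold changes of 0.97 ± 0.47, 0.95 ± 0.75, 0.37 ± 0.36 and −0.02 ± 0.39, none called. The row named Gbp5 carries the Ensembl identifier that GENCODE M21 names Gbp2b (chromosome 3, 142594847 to 142619179). The counts given here are those of that row, and the promoter window is that of Gbp2b. The annotation used for counting was not given, so which of the 2 genes the counts belong to is uncertain. Exons of Igtp and Irgm2 overlap on the same strand, as do those of Gbp4 with Gbp8 and Gbp9, so their counts may be mixed.

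**Figure D3:**
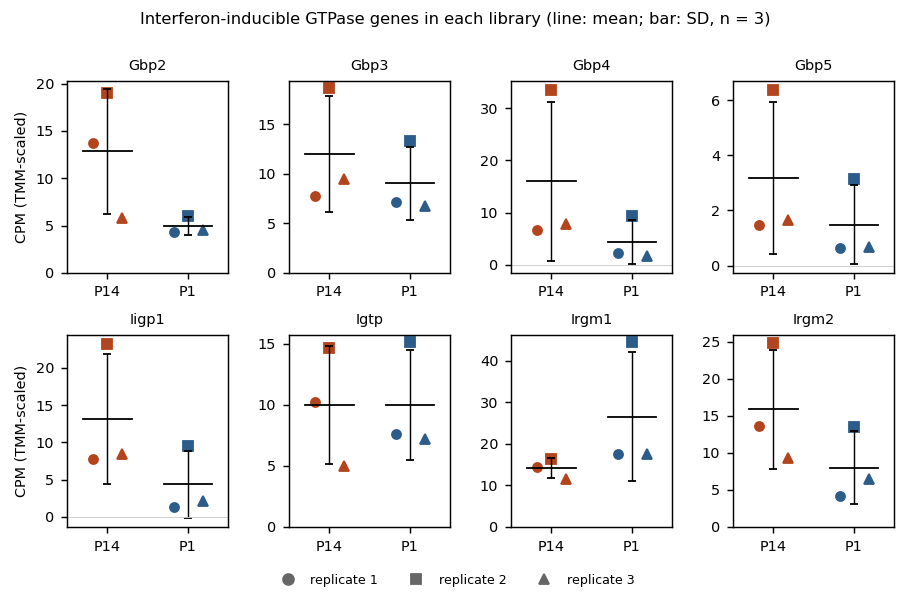
TMM-scaled CPM (vertical axis) of the 8 interferon-inducible GTPase genes in each library, P14 left of P1, with the mean as a line and the SD as a bar (n = 3 pools per age); squares mark replicate 2. Replicate 2 is the highest library of its age in all 8 genes at both ages.

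The size of this replicate difference was set beside that of other genes. Replicate 2 over the mean of the other libraries of its age gave ratios of 1.25 to 4.62 at P14 (median 2.17) and 1.36 to 5.42 at P1 (median 2.54) for the 8 GTPases, where the median ratios over all genes tested were 0.982 and 1.01. Among the 8, Gbp4, Gbp5 and Iigp1 had the highest ratios, at 4.62, 4.04 and 2.85 at P14 and 4.78, 4.77 and 5.42 at P1. Nlrc5, at few counts, had ratios of 4.58 and 11.8. Of all genes tested, 13.2% were highest in replicate 2 at both ages, as were 17 of the 45 members. These comprised the 8 GTPases, 2 genes of peptide supply (28.6% of that role), 2 IRF or STAT genes, 3 of 12 effectors and both RNA sensors, and no class II or heavy chain gene.

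GTPase transcripts had a median GC content of 45.8%, against 49.8% over all genes tested. Every library was also corrected for the GC content and length of transcripts. The median excess of the 8 GTPases on the log2 scale was then 0.77 in P14 replicate 2 and 0.66 in P1 replicate 2. Without the correction these were 0.75 and 0.90. With and without it, all 8 were highest in replicate 2 at both ages. This did not hold for every role. With the correction both RNA sensors were highest in P1 replicate 1, and their median excess in P1 replicate 2 was −0.10, against 0.19 without it. Over the 29 interferon-related genes it was 0.02 in P1 replicate 2, against 0.14, and 0.27 in P14 replicate 2, against 0.24. For the 7 peptide supply genes it was 0.25 in P1 replicate 2, against −0.05. Macrophage and leukocyte markers had median excesses of −0.07 and −0.09 in P14 replicate 2 and 0.03 and −0.04 in P1 replicate 2. The other marker lists, some of 1 or 2 genes, lay between −0.69 (T cell) and 0.34 (B cell) in P14 replicate 2. In P1 replicate 2 they lay between −0.66 (erythroid) and 0.38 (dendritic cell). The cause of the replicate difference was not tested.

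No label states a pairing, and the replicate numbers were taken as pairing the libraries by the rule given under the processing. Correlations of 0.295, 0.112 and 0.102 for equal numbers stood beside up to 0.09 for unequal ones, a narrow margin. The fit with the replicate number as a block rests on that choice. With the block 24 of the 45 genes were called higher, against 19 without it, and 27 with the GC and length correction added. With the block 9 of the 29 interferon-related genes were called higher and 2 lower, against 5 and 1 without it. The genes that gained a call were the GTPases Gbp4, Gbp5, Iigp1 and Irgm2 (higher) and Parp9 (lower), with log2 fold changes of 1.82, 1.12, 1.86, 1.07 and −0.54 in that fit. With the block and the GC and length correction together, 13 were called higher and 2 lower. Without replicate 2 at both ages, a comparison added after the pattern was seen, 8 were called higher and Irgm1 was not called. Gbp4, Iigp1 and Irgm2 were among the 8. The genes were chosen with the replicate difference known, and the block takes out a difference that a replicate number shares at both ages. The calls gained with it are thus a description and no separate support.

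**Figure D4:**
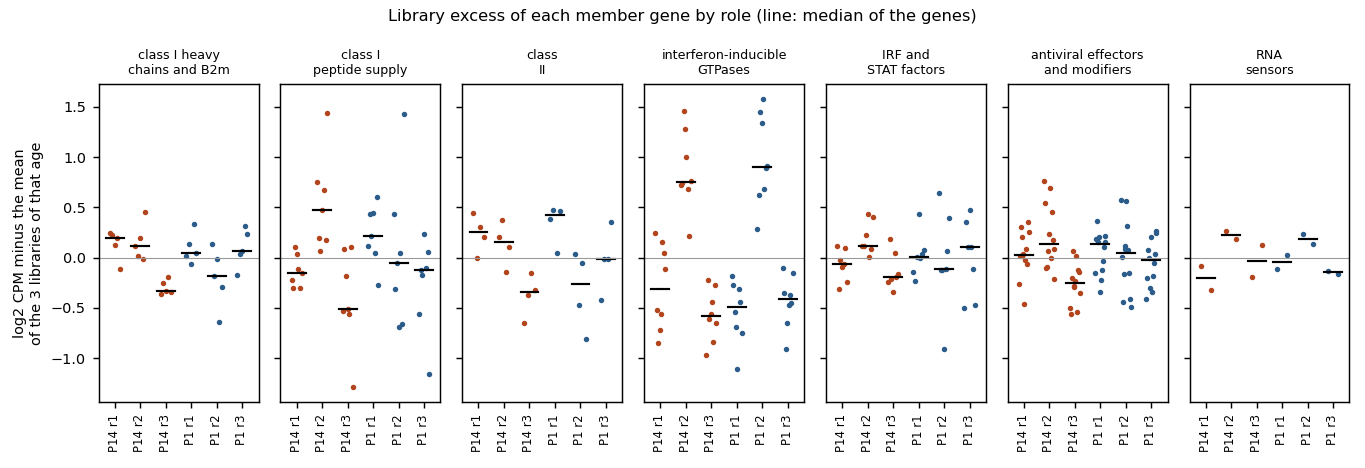
Log2 CPM of each of the 45 genes in a library minus its mean over the 3 libraries of that age (vertical axis), by role, with P14 libraries left of P1 libraries (r1 to r3: replicates 1 to 3); the line is the median of the genes. The GTPases reach medians of 0.75 and 0.90 in the replicate 2 libraries, while in P14 replicate 3 the class I and class II medians are at −0.33 and −0.35 (class I taken over its 12 genes).

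Stretches before the RefSeq start are shown for 5 GTPase genes, which shared the replicate pattern, and for 3 effectors that hold the same motif and were not called. Capitals mark the interferon-stimulated response element (a pair of GAAA letters with 2 bases between, or of TTTC on the other strand) and the gamma-activated site (TTCNNNGAA), which can overlap. All are from GRCm38.p6 in the direction of transcription, and bases −80 to −11 are given for the GTPases Gbp2 (chr3:142620583-142620652, plus strand), Gbp3 (chr3:142559964-142560033, plus strand), Igtp (chr11:58199476-58199545, plus strand), Irgm1 (chr11:48871431-48871500, minus strand) and Irgm2 (chr11:58214897-58214966, plus strand). For the effectors the stretches are −130 to −61 of Ifit1 (chr19:34640759-34640828, plus strand), −170 to −100 of Ifit3 (chr19:34583359-34583429, plus strand) and −150 to −81 of Bst2 (chr8:71537553-71537622, minus strand).
Gbp2: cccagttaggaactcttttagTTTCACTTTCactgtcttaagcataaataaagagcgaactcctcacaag
Gbp3: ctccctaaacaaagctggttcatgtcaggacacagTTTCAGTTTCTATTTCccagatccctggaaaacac
Igtp: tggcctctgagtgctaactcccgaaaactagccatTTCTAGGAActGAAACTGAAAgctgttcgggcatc
Irgm1: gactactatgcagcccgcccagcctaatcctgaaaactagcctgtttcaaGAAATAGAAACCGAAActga
Irgm2: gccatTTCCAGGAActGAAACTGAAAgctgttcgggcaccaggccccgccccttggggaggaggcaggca
Ifit1: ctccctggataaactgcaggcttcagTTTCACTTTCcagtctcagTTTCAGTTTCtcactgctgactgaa
Ifit3: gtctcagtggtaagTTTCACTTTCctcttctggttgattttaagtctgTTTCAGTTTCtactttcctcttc
Bst2: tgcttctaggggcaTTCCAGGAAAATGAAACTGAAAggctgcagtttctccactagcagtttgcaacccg

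The response element was found in 6 of 6 GTPase genes with a window, in 15 of 23 interferon-related genes and in 2 of 10 class I genes, where 4.0% of all genes with a window held it. The gamma-activated site was found in 2 of 6 GTPase genes, 8 of 23 interferon-related genes and 1 of 10 class I genes, and in 9.6% of all genes. Igtp and Irgm2, neighbours on chromosome 11, share an identical run of 29 bases that holds the response element of both. For the row named Gbp5 the window searched was that of Gbp2b. The motif matches are a description of these letters and say nothing of binding.

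Of the transcription factors, Irf3, Irf1 and Stat2 were called higher (42.9%, beside 21.8% of all genes tested) and 4 others were not called. Irf3, the factor activated by viral RNA and DNA sensors (chromosome 7, 44997648 to 45002848), had 36.2, 43.0 and 31.7 CPM at P14, against 18.2, 16.6 and 19.5 CPM at P1. Irf1, an early interferon-gamma target (chromosome 11, 53770014 to 53778374), had 26.4, 26.4 and 20.6 CPM at P14, against 12.1, 21 and 9.43 CPM at P1. Stat2, the partner of Irf9 in type I interferon signalling (chromosome 10, 128270559 to 128292849), had 19.0, 29.6 and 20.0 CPM at P14, against 14.1, 17.5 and 9.60 CPM at P1. Irf3 was separated by age with close replicates, whereas P1 replicate 2 was the highest P1 library for Irf1 and Stat2.

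The log2 fold changes were 1.03 ± 0.21 for Irf3, 0.77 ± 0.28 for Irf1 and 0.71 ± 0.26 for Stat2. The calls of Irf1 and Stat2 each ended when any of 4 libraries was left out, and that of Irf3 ended only with library totals alone among the alternatives run. Irf9, the DNA-binding partner of Stat2 (chromosome 14, 55603571 to 55610030), was at 33.7, 33.3 and 27.6 CPM at P14, against 29.2, 29.8 and 26.4 CPM at P1, a log2 fold change of 0.14 ± 0.20. Irf2, Irf7 and Irf8 had 0.34 ± 0.25, 0.20 ± 0.34 and −0.33 ± 0.23. Irf8, a factor of the macrophage and dendritic lineages, had all P14 libraries (7.60 to 8.24 CPM) below all P1 libraries (9.27 to 10.8 CPM) without a call.

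Among the 12 antiviral effectors and modifiers, Parp14 alone was called, where 21.8% of all genes tested were called higher and 22% lower. Parp14, an ADP-ribosyltransferase (chromosome 16, 35832874 to 35871544), had 16.1, 35.8 and 18.8 CPM at P14, against 6.99, 12.1 and 6.40 CPM at P1, a log2 fold change of 1.45 ± 0.34 whose call held in every alternative run. Its neighbours Parp9 and Dtx3l, which overlap head to head and encode a ribosyltransferase and its ubiquitin ligase partner, were not called. Parp9 (35938470 to 35972605) had 14.9, 17.3 and 12.0 CPM at P14, against 16.9, 23.4 and 24.9 CPM at P1, with a log2 fold change of −0.55 ± 0.24. Dtx3l had −0.15 ± 0.23. Of the 36-base windows of Parp9 and Dtx3l, 90.55% and 90.33% were found in no other gene, and each shared the most windows with the other.

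Ifitm3, a membrane protein that blocks virus entry (chromosome 7, 141009586 to 141010770), had 193, 172 and 127 CPM at P14, against 159, 96.4 and 164 CPM at P1. Its ages overlapped, with a log2 fold change of 0.24 ± 0.24. Per kilobase it stood at 242 CPM at P14 and 206 CPM at P1. Ifit1, which binds foreign RNA caps (chromosome 19, 34640871 to 34650009), had 2.60, 5.44 and 2.19 CPM at P14, against 1.85, 3.15 and 1.52 CPM at P1, again highest in replicate 2 at both ages. The other 8 effectors, namely Ifit3, Ifi35, Usp18, Xaf1, Rtp4, Bst2, Ifitm2 and Dtx3l, had log2 fold changes between −0.51 (Rtp4) and 0.35 (Usp18). For Ifit3, 41.5% of the windows were unique, most of the rest being shared with Ifit3b, and for Ifitm2 46.6% were unique.

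The cytoplasmic RNA sensors were not called. Ddx58, which encodes RIG-I (chromosome 4, 40203773 to 40239828), had 13.9, 17.7 and 12.7 CPM at P14, against 12.3, 15.7 and 12.1 CPM at P1. Ifih1, the sensor of long double-stranded RNA (chromosome 2, 62595798 to 62646255), had 5.63, 8.10 and 7.73 CPM at P14, against 5.60, 6.06 and 4.88 CPM at P1. Both overlapped between ages, with log2 fold changes of 0.13 ± 0.23 and 0.35 ± 0.27, and in edgeR neither reached an unadjusted p under 0.05.

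Other genes of the same pathways, listed for their known roles but with earlier results of these data known, were counted in the same fit and are likewise given without p-values. Of 153 such genes 105 were tested. Over all genes tested, 21.8% were called higher (rose) and 22% lower (fell). Of 12 other class I genes 2 rose (16.7%) and 3 fell (25%), with a median of −0.06 on the log2 scale. The tapasin-related Tapbpl rose to 6.55 ± 1.41 CPM (SD, n = 3) at P14, against 3.44 ± 1.21 CPM at P1 (log2 fold change 0.96 ± 0.33). The lipid-presenting Cd1d1 fell to 2.06 ± 0.416 CPM at P14, against 15.4 ± 2.75 CPM at P1 (log2 fold change −2.88 ± 0.29, lower in 3 of 3 libraries). The metabolite-presenting Mr1 and the disulfide isomerase Pdia3 fell with log2 fold changes of −0.96 ± 0.31 and −0.99 ± 0.22.

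Of 10 other class II genes 1 rose (10%) and 3 fell (30%), beside 21.8% and 22% of all genes, with a median of −0.01. H2-DMa, which loads peptides onto class II, rose by 1.2 ± 0.36 on the log2 scale, to 3.38 ± 0.476 CPM at P14, against 1.47 ± 0.402 CPM at P1. Subunits of the factors that bind class II promoters, Rfx5, Nfya and Nfyb, fell with −0.72 ± 0.26, −0.72 ± 0.22 and −0.67 ± 0.23, and 0 to 3 genes of this list fell when single libraries were left out, with 0 without P14 replicate 2 and 0 without P1 replicate 3.

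Of 58 other interferon-inducible genes 17 rose (29.3%), 8 fell (13.8%) and 33 did not pass, with a median of 0.12. The shares over all genes were 21.8% and 22%. Rsad2, the antiviral viperin, rose to 46.2 ± 6.55 CPM at P14, against 10.4 ± 2.67 CPM at P1 (log2 fold change 2.17 ± 0.24), Oas2, an oligoadenylate synthetase, rose with 2.54 ± 0.39 and the death ligand Tnfsf10 with 1.98 ± 0.35. The galectin Lgals9 fell to 51.8 ± 17.9 CPM at P14, against 139 ± 12.4 CPM at P1 (−1.41 ± 0.24), and Ifit2 and Ifi44 fell with −1.25 ± 0.37 and −1.12 ± 0.34. The counts were 11 and 20 with library totals alone, and 4 and 3 genes fell without P14 replicate 2 or 3. In this list 22 genes (37.9%) were highest in replicate 2 at both ages, among them the GTPase genes Gbp7, Gbp9 and Ifi47, picked out after their values were seen, with ratios of 2.03, 2.64 and 2.39 at P14 and 2.68, 1.93 and 2.74 at P1.

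Of 25 genes of interferon signalling 5 rose (20%) and 2 fell (8%), beside 21.8% and 22% of all genes, with a median of 0.21. The interferon-gamma receptor chains Ifngr1 and Ifngr2 rose with log2 fold changes of 1.11 ± 0.19 and 0.93 ± 0.19, Ifngr2 to 185 ± 28.0 CPM at P14, against 97.1 ± 6.29 CPM at P1. Irf5 rose with 0.83 ± 0.22, and the phosphatase Ptpn2 fell with −0.95 ± 0.27. With library totals alone 1 rose and 6 fell, and with the GC and length correction 8 rose.

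Leukocyte markers were read beside these genes, since class II molecules are made mainly by leukocytes. Of 14 macrophage markers 10 were called higher at P14 and 4 were not called, beside 21.8% of all genes called higher and 22% lower. The 14 summed to 354.4 to 404.1 CPM at P14 and 113.3 to 124.2 CPM at P1. The 4 not called are named here after their values were seen. Aif1 and Emr1 had log2 fold changes of 0.71 ± 0.34 and 0.61 ± 0.29, and Lyve1 and Fcgr1 had −0.46 ± 0.24 and −0.51 ± 0.36. For Lyve1 all P14 libraries lay below all P1 libraries. Lyz2 and C1qb were at 68.0 to 80.2 CPM and 60.1 to 91.5 CPM at P14, against 18.4 to 26.5 CPM and 12.4 to 27.1 CPM at P1. Of 6 general leukocyte markers, Laptm5 and Coro1a among them, 4 were higher. Their sum was 55.1 to 60.5 CPM at P14 and 24.6 to 33.5 CPM at P1 over all 6. Cd48 and Cd53, which were not called, had log2 fold changes of 1.01 ± 0.56 and −0.13 ± 0.37. The class II genes summed to 63.5 to 94.7 CPM at P14 and 5.13 to 9.02 CPM at P1. The part of macrophage number in the class II difference was not tested.

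Other antigen-presenting and lymphoid cells were sparsely represented. Of 9 dendritic cell markers Zbtb46 and Clec9a were in the table, with neither called (sum 16.1 to 25.0 CPM at P14 and 14.0 to 16.5 CPM at P1). Zbtb46 made up most of that sum, with means of 17.1 CPM at P14 and 13.6 CPM at P1. Clec9a had means of 3.49 and 1.73 CPM, with all P14 libraries above all P1 libraries. Of 8 B cell markers Cd79b was in the table and was higher, at 2.06 to 3.72 CPM at P14 and 1.01 to 1.25 CPM at P1. Of 8 T cell markers Lck was in it, at 0.664 to 1.93 CPM at P14 and 0.337 to 0.879 CPM at P1, and 0 of 7 NK cell markers were. Markers outside the table were not analysed here. Of 6 monocyte markers 3 were in the table, and Cd14 was higher and Plac8 and Fcgr4 were not called. Plac8 and Fcgr4 had log2 fold changes of −1.25 ± 0.50 and −0.68 ± 0.44, with all P14 libraries below all P1 libraries. Granulocyte markers went the other way, with 5 of 5 lower, S100a9 and S100a8 among them, and sums of 6.05 to 8.45 CPM at P14 and 45.8 to 59.6 CPM at P1. Erythroid markers, Hbb-b1 and Hba-a1 among them, were higher in 6 of 7 genes. The shares over all genes tested were 21.8% called higher and 22% lower.

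**Figure D5:**
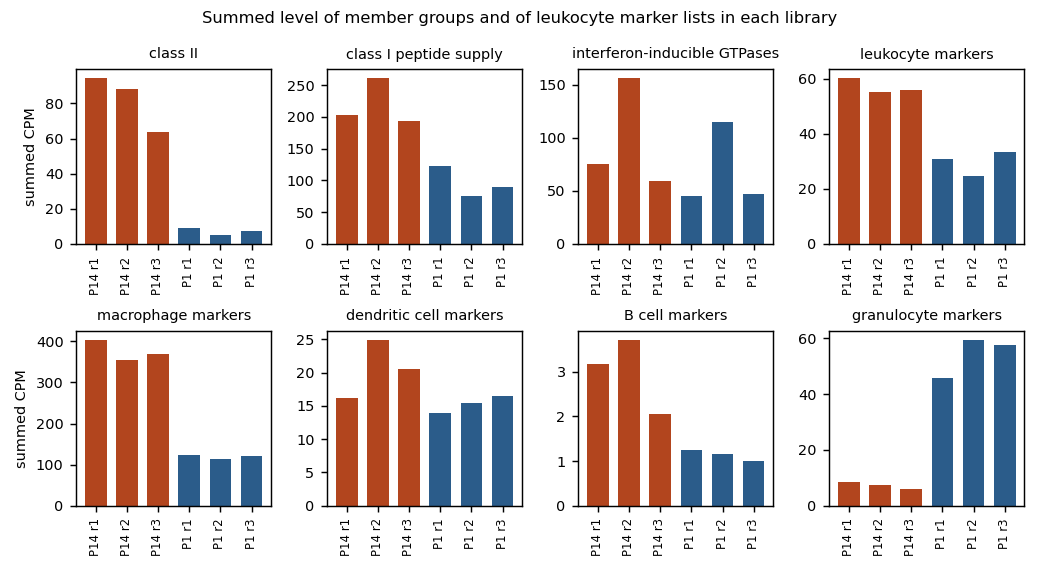
Summed TMM-scaled CPM (vertical axis) of 3 groups of members and of 5 leukocyte marker lists in each library, P14 left of P1 (r1 to r3: replicates 1 to 3). Class II, macrophage and leukocyte sums are higher in all P14 libraries, granulocyte sums are lower, and the GTPase sums peak in replicate 2 at both ages (156.7 CPM at P14 and 114.4 CPM at P1).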

How the data were processed

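For the 6 libraries the authors deposited raw counts in 1 table, as whole numbers without normalisation. The submitters' processing notes name GRCm38 (mm10) as builds, and bedtools and edgeR 3.2.4 as tools, with no role for either. Aligner, counter, annotation, strand and treatment of reads with several matches were not given in the sources used here. No gene in the table has fewer than 60 reads in all. Libraries were sequenced for 36 cycles, per the labels' protocols.

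In R 4.3.3, genes passing filterByExpr (minimum count 10) were TMM-scaled and tested, two-sided, with edgeR 4.0.16 (robust quasi-likelihood F-test, age as the only term, Benjamini-Hochberg adjustment over 14301 genes, threshold 0.05). The fit was tested on simulated data. Standard errors are the fitted coefficient over the square root of F. Library excess is log2 CPM (prior count 2) minus the mean of that age. Positions and 36-base windows came from GENCODE M21 by Ensembl ID (the row named Gbp5 is Gbp2b there), promoter sequences from RefSeq (GRCm38.p6). Of 40 promoter windows, 37 end in a sense transcript of their gene and 0 in an antisense one only. Members and lists were chosen with earlier results of these data known. Values in every library are printed for the most abundant member of each role and its 3 largest changes; other genes are named for size of change among called genes of at least 2 CPM, or as most abundant markers.

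Replicates carry the numbers 1 to 3 at both ages, and no label says what a number stands for. Deviations from the age means correlated at 0.295, 0.112 and 0.102 for equal numbers and lay between −0.214 and 0.09 for unequal ones, so by a rule of more than 0.1 in every pair the numbers were taken as pairing the libraries. The closest libraries, P14 replicates 2 and 3, differed with a chi-square of 12.0 per degree of freedom. The precision of each value is limited by depth, 1 read being worth 0.046 to 0.17 CPM, and 5 members had fewer than 10 counts in a library. Alternatives used limma 3.58.1 (voom), DESeq2 1.42.0, other scalings and filters, the replicate block, a spline correction for GC content and length, and leaving out libraries. 1 gene that the naming rule selects is not reported here.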

Additional observations from a re-analysis of the deposited data

How the results depend on the processing

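Class II kept 4 calls higher and 0 lower, and class I 0 lower, under every alternative, DESeq2 and voom included, and 0 lower also at an unadjusted p under 0.05 in edgeR. Depth limits genes of few reads, such as Nlrc5, and causes of the changes below were not tested. DESeq2 size factors and no filter moved no call among the 64 named genes. Of the 20 called members 12 kept their call whichever library was left out, and 11 under every alternative; 15 members, none of them called, changed direction under some alternative.

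With library totals alone all genes had 1620 calls higher and 5592 lower (median −0.47), members 12 and 5 (0.27), class I 6 higher (0.94), class II a median of 2.71, and interferon-related genes 2 and 5 (−0.18). The other class I list had 1 higher (−0.52), other class II 0 higher (−0.48), other interferon-inducible 11 and 20 (−0.38), and signalling 1 and 6 (−0.25). Excess medians became 0.02 (class I, P1 replicate 2), and in P1 replicate 3 −0.25 (class I), −0.37 (interferon-related) and −0.28 (other interferon-inducible). Directions reversed for B2m (−0.10), Gbp3 (−0.13), Irf2 (−0.11), Irf7 (−0.24), Irf9 (−0.32), Ifit3 (−0.18), Ifi35 (−0.27), Usp18 (−0.11), Ifitm3 (−0.20), Ddx58 (−0.34) and Ifih1 (−0.13).

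Upper quartile scaling gave 2 members lower, 3 interferon-related genes higher and 2 lower, and medians of −0.07 (all genes) and −0.08 (other class II). Voom gave 0 members and 0 interferon-related genes lower, and a signalling median of 0.29. A filter of over 5 CPM in 3 libraries left 1 other class I gene and 0 other class II genes higher (median −0.10), 11 other interferon-inducible genes higher and 5 lower, and 1 signalling gene lower.

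The replicate block gave 2 members lower, 9 interferon-related genes higher and 2 lower, and a median over all genes of 0.01; it ended no call of a named gene. The GC and length correction gave 0 members and 0 interferon-related genes lower, 8 signalling genes higher, and medians of 0.01 (all genes) and 0.06 (other class II). With the replicate block added these were 2, 2 and 9, with 13 interferon-related genes higher and medians of 0.02 and 0.06. Igtp (0.13, with block 0.17), Ifi35 (−0.01, −0.01) and Dtx3l (0.11, 0.11) reversed. The corrected excess, added after seeing the data, was −0.04 and 0.10 for class I in P1 replicates 1 and 2, and 0.02 for other interferon-inducible genes in P1 replicate 2.

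Leaving out single libraries gave 12 to 20 members higher and 0 to 2 lower, 6 to 9 class I genes higher, and 2 to 8 interferon-related genes higher and 0 to 2 lower. It gave 1 to 2 other class I higher, 0 to 1 other class II higher and 0 to 3 lower, 3 to 12 other interferon-inducible lower, and 1 to 2 signalling genes lower. Medians were −0.02 to 0.01 (all genes), 0.41 to 0.81 (members), 3.08 to 3.51 (class II), −0.15 to 0.11 (other class I), −0.23 to 0.08 (other class II) and 0.12 to 0.28 (signalling). Single genes whose direction depended on 1 library ranged as follows, Gbp3 (−0.09 to 0.76), Gbp5 (−0.01 to 2.20), Igtp (−0.39 to 0.42), Irf7 (−0.14 to 0.42), Ifi35 (−0.02 to 0.38), Dtx3l (−0.23 to 0.03), Ifitm2 (−0.30 to 0.03) and Ddx58 (−0.01 to 0.27).

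Without replicate 2 at both ages, added after seeing the data, 6 class I genes and 8 interferon-related genes were higher, 0 members and 0 interferon-related genes lower, 1 other class I gene higher (median 0.13), 1 other class II gene lower and 1 signalling gene lower. Igtp (0.07), Irf7 (−0.38), Ifit3 (−0.01), Dtx3l (0.03) and Ifitm3 (−0.01) reversed.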
